A study of Mus musculus with 5 samples.

Results

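Carbonic anhydrases are zinc enzymes that turn carbon dioxide and water into bicarbonate and a proton, and the reverse. Family members differ in where they work: some are cytosolic, some are anchored at the cell surface with the active site outside, and Car6 is secreted. At the surface they work beside bicarbonate transporters and proton exporters, and in tumours they are known for their part in the handling of acid. The genes described here are Car2, Car3, Car4, Car6, Car8, Car12, Car13 and Car14, which are the carbonic anhydrases named for this account, with Car9 left to the hypoxia-inducible genes. Every probe set annotated to exactly 1 of these 8 genes was taken, which gave 12 of 20380 such probe sets on the array. The genes were chosen on the differences between the ascites and FBS arrays, which were already known, so their differences between the groups are given as a description, with no test.

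ID8 is a cell line from the ovarian surface epithelium of the mouse. In the mouse peritoneum it gives rise to tumours and to ascites, a protein-rich fluid. The ascites group held 2 arrays (replicates 2 and 3) of ID8 cells kept for 7 days in DMEM with 10% ascites from ID8-bearing mice. The FBS group held 3 arrays (replicates 1, 2 and 3) of parental ID8 cells in DMEM with 10% fetal bovine serum. The labels do not say whether the ascites medium also held serum, how long the FBS culture lasted, or whether replicates were separate cultures, so spread and p-values may be technical. Values are log2 signals of an Affymetrix mouse array, and differences are ascites minus FBS.

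Car6 and Car12 were the members that differed between the groups, in opposite directions, so the stretch around each gene's RefSeq start is shown first (GRCm38.p6, 250 bases before to 50 after the start, written 5′ to 3′ along the gene). The Car6 stretch is chr4:150201086-150201385 on the minus strand, and that of Car12 is chr9:66713436-66713735 on the plus strand. Capitals mark matches, on either strand, to ACGTG, a form of the core of the hypoxia response element. No other form of that core was searched. In Car6 ACGTG matches both strands at 1 place, 149 bases before the start, where the matches overlap.
Car6: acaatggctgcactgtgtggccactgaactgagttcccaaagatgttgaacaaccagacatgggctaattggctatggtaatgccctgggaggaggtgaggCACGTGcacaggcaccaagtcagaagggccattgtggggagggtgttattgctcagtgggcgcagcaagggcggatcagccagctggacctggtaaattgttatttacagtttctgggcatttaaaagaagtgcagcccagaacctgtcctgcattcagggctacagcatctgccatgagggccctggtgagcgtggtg
Car12: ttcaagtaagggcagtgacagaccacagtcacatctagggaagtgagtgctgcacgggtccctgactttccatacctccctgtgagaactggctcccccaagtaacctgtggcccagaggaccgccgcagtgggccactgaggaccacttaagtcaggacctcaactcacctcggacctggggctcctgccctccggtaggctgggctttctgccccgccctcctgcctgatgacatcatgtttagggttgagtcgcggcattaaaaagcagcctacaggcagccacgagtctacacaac
Car12 held no match to ACGTG, which occurs in 19.6% of 32851 such stretches of the mouse genome. Matches to TGATGNAA, the composite element bound by C/EBP and ATF factors (3.97% of all stretches), were found in neither gene. A match or its lack describes these letters only. The table held a stretch for 4 of the 8 genes, the others being Car4 and Car14, whose arrays did not separate by group. Both also hold a match to ACGTG, so 3 of the 4 stretches do.

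Car6 encodes the secreted carbonic anhydrase of saliva and milk. In mouse cells a further, intracellular form has been described whose transcript depends on the stress factor CHOP. The probe set, 1421001_a_at, is of the type that can detect alternative transcripts of 1 gene, so the forms were not told apart. Its signal was 11.59 and 13.14 in ascites replicates 2 and 3, against 7.79, 7.83 and 8.32 in FBS replicates 1, 2 and 3. Both ascites arrays lay far above every FBS array. The difference was 4.39 (SE 0.52), or 20.9-fold, between 12.37 ± 1.10 (SD, n = 2) in ascites and 7.98 ± 0.30 (SD, n = 3) in FBS. Only 3 of 20380 probe sets had a larger positive difference. In bulk RNA, more cells that make a transcript and more of it per cell cannot be told apart.

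The ascites arrays were far apart for Car6. Replicate 3 read 1.55 above replicate 2, which is 2.93-fold, and 10 other genes of 12393 differed between these arrays by at least as much. Of all genes, 39 differed at least 2-fold between them. The height of the Car6 difference therefore depended on the array, being 5.16 without ascites replicate 2 and 3.61 without ascites replicate 3. Within the FBS group, replicate 3 read 0.51 above the mean of replicates 1 and 2. Without FBS replicate 3 the Car6 difference was 4.56.

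Car12 encodes a membrane enzyme with its active site outside the cell, found in many human epithelial tumours and induced by estrogen in human breast cancer cells. Its signal was 8.61 and 8.82 in ascites replicates 2 and 3, against 10.58, 10.74 and 9.89 in FBS replicates 1, 2 and 3. Both ascites arrays lay below all FBS arrays, and FBS replicate 3 lay between the other FBS arrays and the ascites arrays. The group means were 8.71 ± 0.15 (SD, n = 2) in ascites and 10.40 ± 0.45 (SD, n = 3) in FBS, a difference of -1.69 (SE 0.29), or 3.22-fold lower in ascites. There were 191 probe sets with a more negative difference. Leaving out 1 array at a time gave differences of -1.95 to -1.52, with the largest size without FBS replicate 3.

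**Figure D1:**
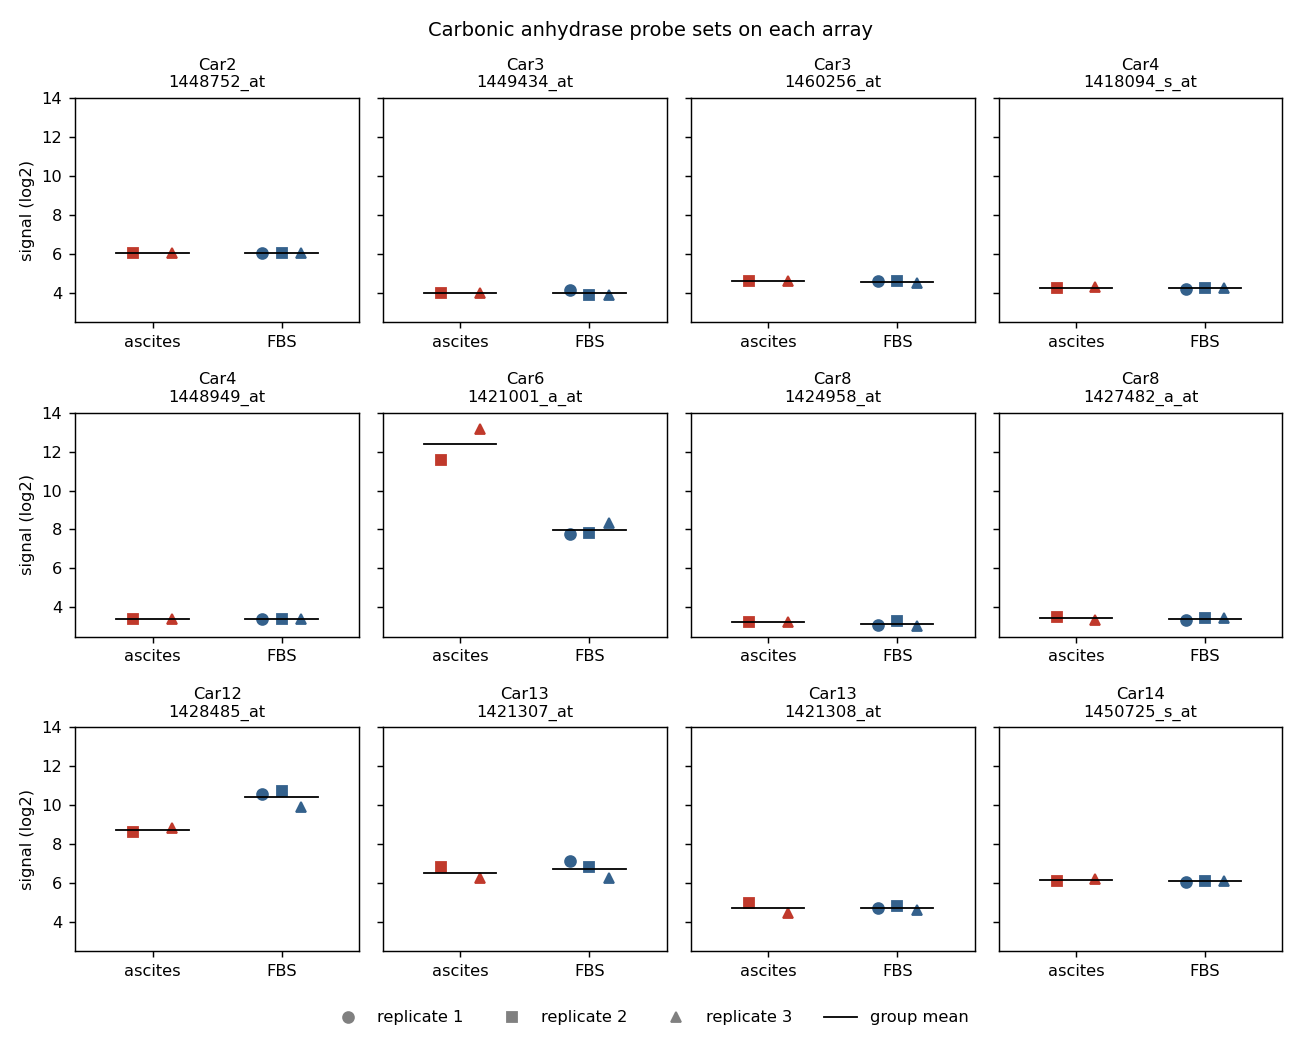
Log2 signal (vertical axis) of each of the 12 carbonic anhydrase probe sets on every array, with ascites arrays (red) left of FBS arrays (blue). Marker shapes give the replicate number and horizontal lines the group means. Car6 lies at 11.59 and 13.14 in ascites and at 7.79 to 8.32 in FBS, Car12 at 8.61 and 8.82 in ascites and at 9.89 to 10.74 in FBS, and the groups overlap in the other panels.

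The other membrane-bound members were flat. Car14, another transmembrane enzyme, read 6.12 and 6.22 in ascites, against 6.05, 6.12 and 6.12 in FBS, a difference of 0.07 (SE 0.06). Car4, which is held at the surface by a lipid anchor, had a pair of probe sets. The probe set 1448949_at of Car4 read 3.39 on all 5 arrays, and 1418094_s_at read 4.25 and 4.30 in ascites, against 4.20, 4.25 and 4.25 in FBS. The groups overlapped for both genes.

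Among the cytosolic members, Car2, the fast enzyme of red cells, kidney and osteoclasts, gave 6.07 and 6.07 in ascites, against 6.07, 6.06 and 6.07 in FBS. The 95% confidence interval of its ratio of ascites to FBS was 0.921 to 1.09. Car3, a slow enzyme of muscle, fat and liver, read 3.99 and 3.99 in ascites, against 4.17, 3.88 and 3.89 in FBS, for 1449434_at. The second Car3 probe set, 1460256_at, read 4.59 and 4.59 in ascites, against 4.60, 4.59 and 4.53 in FBS. Car8, which lacks enzyme activity and binds an IP3 receptor, differed by 0.09 (SE 0.09) for 1424958_at and by 0.04 (SE 0.07) for 1427482_a_at. None of these probe sets separated the groups.

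Car13, a further cytosolic enzyme, varied within the groups more than between them. Its probe set 1421307_at read 6.80 and 6.27 in ascites replicates 2 and 3, against 7.14, 6.80 and 6.27 in FBS replicates 1, 2 and 3. The ascites values thus equalled those of the FBS arrays with the same replicate numbers, to the 2 decimals deposited. The difference was -0.20 (SE 0.32), with a 95% confidence interval of the ratio of 0.477 to 1.59, so a change within these bounds is not excluded. The other Car13 probe set, 1421308_at, read 4.96 and 4.49 in ascites, against 4.74, 4.82 and 4.64 in FBS, a difference of -0.01 (SE 0.16). Car2, Car3 and Car13 lie on chromosome 3, in a cluster that also holds Car1.

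Across the 12 probe sets the groups' arrays did not overlap for 1 upward and 1 downward, where 19.5% of all probe sets with 1 gene did so upward and 17.7% downward. The same 1 and 1 differed at least 2-fold, where 2.09% of all did upward and 2.9% downward. The rule used this contrast, and nothing is read from these shares. The median difference was 0.01 for the 12 probe sets and 0.01 for all, and the median size of the difference was 0.04 and 0.16. The 10 probe sets of the 6 genes other than Car6 and Car12 differed by -0.20 to 0.09, with SEs of 0.05 to 0.32.

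**Figure D2:**
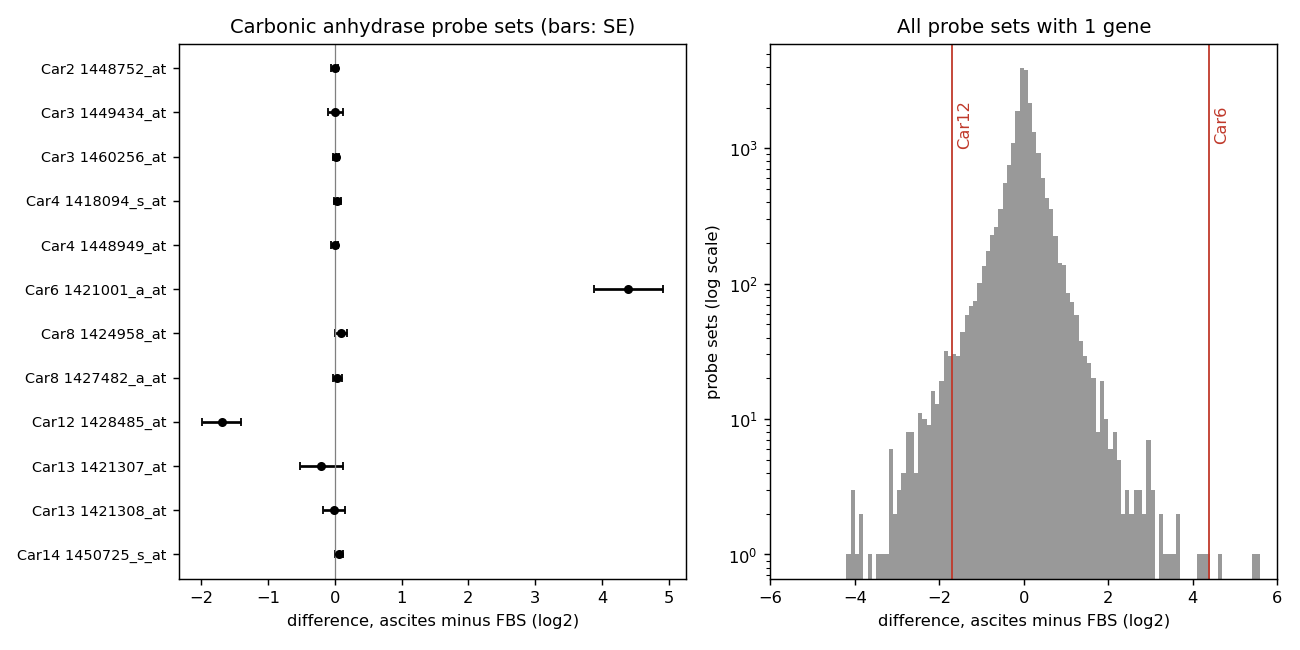
Left, difference between ascites and FBS (log2, horizontal axis) of each carbonic anhydrase probe set, with bars for the SE of the limma fit. Right, the number of probe sets (log scale) by difference for all 20380 probe sets with 1 gene, with red lines at Car6 (4.39) and Car12 (-1.69). Car6 lies in the sparse upper tail, and 10 of the 12 probe sets lie near 0.

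The deposited values carry no detection call. As a guide to background, 10 probe sets of 6 Y-linked genes, which a line of ovarian origin lacks, read 3.04 to 6.19. The upper end is 1 probe set of Sry (1450579_x_at, 6.09 to 6.19), and the other 9 read at most 4.79. On all 5 arrays, 8 of the 12 carbonic anhydrase probe sets lay within the range of all 10, namely those of Car2, Car3, Car4 and Car8 and 1421308_at of Car13. Car14 exceeded it on 1 array only. Car6, Car12 and 1421307_at of Car13 lay above it on every array. Without the Sry probe set, a comparison added after seeing the data, only the 6 probe sets of Car3, Car4 and Car8 lay at or below the highest Y-linked value on all arrays. Car2 and Car14 then lay above it on every array, and 1421308_at of Car13 on some arrays. A probe set's signal depends on its probes as well as on the transcript, so levels are not compared between genes, and a flat probe set at such a signal does not show that a transcript was present and unchanged. Of the 12 probe sets, 9 had the same deposited value on at least 2 arrays, as did 47.1% of all probe sets with 1 gene.

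Other genes were tested with limma, with a call at an adjusted p below 0.05 over 12393 genes, and the calls depended on single arrays. With all arrays 5.28% of genes passed (2.69% rose and 2.59% fell), and 24.2% had an unadjusted p below 0.05. When FBS replicate 3 was left out, 20.1% passed (9.17% rose and 10.9% fell). When any one of the other 4 arrays was left out, 0 genes passed, so every gene list then had 0 calls. FBS replicates 1 and 2 differed over genes by an SD of 0.117, while FBS replicate 3 differed from each by 0.427 and the ascites arrays from each other by 0.239.

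The remaining family members gave no call. The list held Car1, Car5a, Car5b, Car7, Car9, Car10, Car11, Car15 and the receptor phosphatases Ptprg and Ptprz1, which carry a domain related to carbonic anhydrase. None of the 10 passed, where 5.28% of all genes did, and 1 had an unadjusted p below 0.05, where 24.2% of all genes did. Ptprz1 had the smallest p, with a difference of -0.13 (SE 0.05, limma adjusted p = 0.205). Car9, the hypoxia-inducible surface enzyme, read 5.12 and 5.04 in ascites, against 5.17, 5.37 and 5.21 in FBS (difference -0.17, SE 0.08, limma adjusted p = 0.321). These Car9 signals lay above 9 of the 10 Y-linked probe sets and below the highest. Car11, a member without enzyme activity, read 5.28 and 5.70 in ascites, against 6.36, 6.03 and 5.70 in FBS (limma adjusted p = 0.29), and the groups shared the value 5.70.

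By the root mean square difference of the deviations from each gene's mean over the 5 arrays, the gene nearest to Car6 was Stbd1, which encodes a glycogen-binding protein, at 0.408. It read 9.32 and 10.31 in ascites, against 5.84, 6.11 and 6.54 in FBS. P2rx3 (0.495), an ATP-gated channel gene, the glycosyltransferase gene B4galnt2 (0.527), the cytochrome P450 gene Cyp3a13 (0.599) and Cdsn (0.62), which encodes an adhesion protein of skin, followed. Of these 5, Cyp3a13 alone was not higher in ascites replicate 3 than in replicate 2. The genes nearest to Car12 were Kazald1 at 0.09, C1qtnf12 at 0.093, the interleukin receptor gene Il13ra1 at 0.114, the vitamin receptor gene Cd320 at 0.128 and the sphingolipid transporter gene Spns2 at 0.129. All 5 were lower in FBS replicate 3 than in the other FBS arrays. Kazald1 read 8.30 and 8.31 in ascites, against 10.30, 10.46 and 9.48 in FBS. These distances rest on 5 arrays in 2 groups, so any gene with a like difference between the groups comes near.

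**Figure D3:**
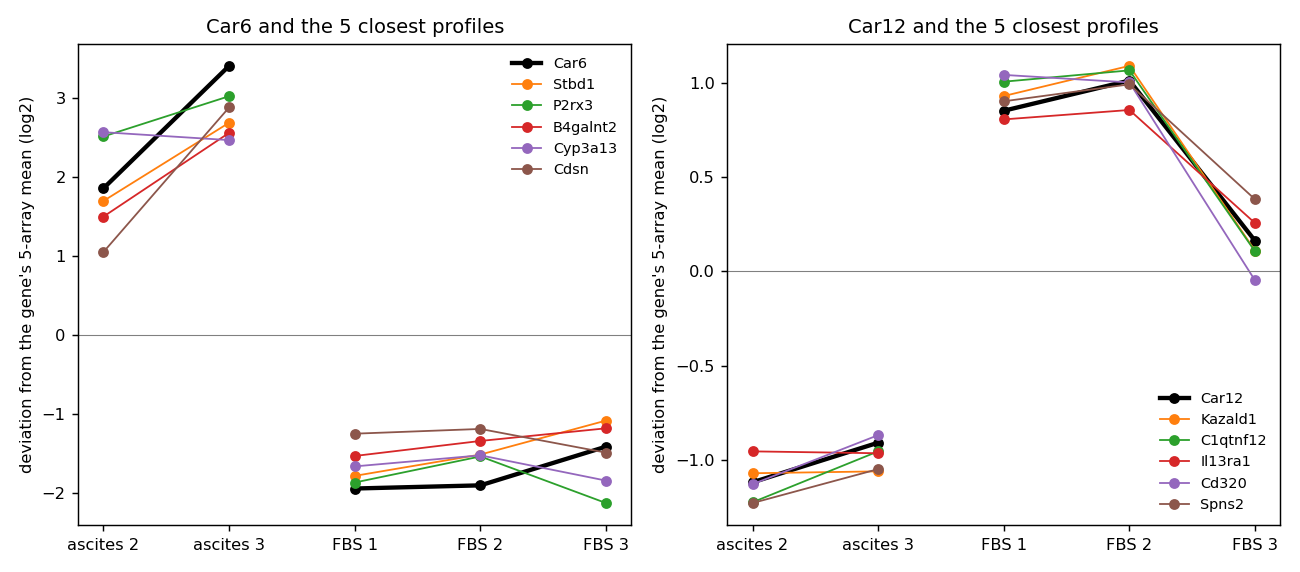
Deviation of each gene from its own mean over the 5 arrays (log2, vertical axis) on the ascites and FBS arrays (horizontal axis), for Car6 (left) and Car12 (right) in black and the 5 closest genes in colour. Lines join the arrays of 1 group. The Car12 profiles nearly coincide (root mean square differences of 0.09 to 0.129), and those nearest to Car6 are less close (0.408 to 0.62).

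Genes of the CHOP and integrated stress response list, which responds to amino acid shortage and to stress in the endoplasmic reticulum, were looked at because of the CHOP-dependent form of Car6. Of 16 measured members 4 rose and 0 fell, where 2.69% of all genes rose and 2.59% fell. The list's median difference was 1.24, against 0.00 for all genes. Ero1a, an oxidase of the endoplasmic reticulum and a CHOP target, rose with values of 11.46 and 11.75 in ascites, against 10.01, 10.00 and 9.98 in FBS (difference 1.61, SE 0.10, limma adjusted p = 0.0158). The transcription factor gene Atf5 rose by 1.41 (limma adjusted p = 0.0156), the cell death gene Bbc3 by 0.94 (limma adjusted p = 0.0237) and Asns, asparagine synthetase, by 0.82 (limma adjusted p = 0.0185). Every array of the ascites group lay above the FBS group for these 4 genes. Without FBS replicate 3 the list had 8 members up and 1 down, where 9.17% of all genes rose and 10.9% fell. It had 0 calls without any one of the other arrays.

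Ddit3, which encodes CHOP, read 10.88 and 11.70 in ascites replicates 2 and 3, against 9.75, 9.73 and 9.90 in FBS (difference 1.50, SE 0.26), and did not pass (limma adjusted p = 0.0575). Its call depended on the setting. Among the alternative fits described below, it passed with quantile normalization, median-centred arrays, the lowest 25% of genes left out and array weights. It did not pass without FBS replicate 3 or with all probe sets of a gene averaged. As with Car6, ascites replicate 3 had the highest Ddit3 value and FBS replicate 3 the highest of the FBS group. FBS replicate 3 was however the lowest FBS array for 12 of the 16 members and the highest for 3. Over the list, 9 of 16 members were higher in ascites replicate 3 than in replicate 2, with a median gap of 0.19, against 44.3% of all genes and a median gap of 0.00. Whether CHOP had a part in the Car6 difference was not tested.

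CA12 and CA9 are known in human tumours as genes induced by hypoxia, and the mouse list of hypoxia-inducible genes had calls in both directions. Of 16 measured members 1 rose and 1 fell, beside 5.28% of all genes called, with a median of -0.07. Vegfa, a growth factor for blood vessels, read 10.96 and 11.29 in ascites, against 9.39, 9.11 and 9.24 in FBS, and rose by 1.88 (SE 0.14, limma adjusted p = 0.0177). Egln3, a prolyl hydroxylase gene that the factors induce, read 8.41 and 7.66 in ascites, against 10.83, 10.91 and 10.72 in FBS, and changed by -2.79 (SE 0.24, limma adjusted p = 0.0204). A second probe set moved the same way for each gene, by 1.54 for Vegfa and -2.37 for Egln3. Without FBS replicate 3 the list had 4 members up and 3 down, where 20.1% of all genes passed, and without any other array it had 0 calls.

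In the estrogen receptor and estrogen-responsive list 2 of 11 measured members rose and 0 fell, where 2.69% of all genes rose and 2.59% fell, with a median of -0.02. The cyclin gene Ccnd1 rose by 1.17 (SE 0.07, limma adjusted p = 0.0158) and the transcription factor gene Gata3 by 1.29 (SE 0.15, limma adjusted p = 0.0316). Esr1, the estrogen receptor gene, read 3.91 and 3.94 in ascites, against 3.79, 3.91 and 4.02 in FBS, within the range of the Y-linked probe sets. Pgr and Greb1, classical estrogen targets, differed by -0.02 and 0.05 and did not pass. The list had 2 members up and 2 down without FBS replicate 3, where 20.1% of all genes passed, and 0 calls without any other array.

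Of the transporters that carry bicarbonate or are regulated with it, 1 of 14 measured fell and 0 rose, where 2.59% of all genes fell and 2.69% rose, with a list median of 0.03. A single call among 14 is near that share, and it was lost without any one array other than FBS replicate 3. The gene that fell was Slc4a2, a chloride-bicarbonate exchanger of most cells, with values of 11.01 and 10.84 in ascites, against 11.81, 11.84 and 11.57 in FBS (difference -0.82, SE 0.12, limma adjusted p = 0.0408). Cftr, a chloride and bicarbonate channel, read 6.90 and 6.26 in ascites, against 5.48, 5.65 and 5.90 in FBS, and did not pass (limma adjusted p = 0.116). Slc4a4, the sodium-bicarbonate cotransporter known to work with carbonic anhydrases, differed by 0.11 (SE 0.11), and its groups overlapped.

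Of the proton and lactate extrusion list 1 of 13 measured members fell and 0 rose, where 2.59% of all genes fell and 2.69% rose, with a median of -0.13. Slc9a3r2, a scaffold of the sodium-proton exchanger, read 8.78 and 8.62 in ascites, against 9.63, 9.73 and 9.55 in FBS (difference -0.94, SE 0.09, limma adjusted p = 0.0218). Its sister scaffold Slc9a3r1 had a larger difference of -1.75 (SE 0.32, limma adjusted p = 0.0608), the lactate transporter gene Slc16a1 one of -1.48 (SE 0.25, limma adjusted p = 0.0523) and the exchanger cofactor Tesc one of -1.16 (SE 0.25, limma adjusted p = 0.0792). For each of these 3 the ascites arrays lay below all FBS arrays, with FBS replicate 3 the lowest of its group, as for Car12. Without FBS replicate 3 these genes passed too, which gave 4 fallen members, where 10.9% of all genes fell. The list had 0 calls without any one of the other arrays. Bsg, the chaperone of lactate transporters, differed by 0.08 (SE 0.17).

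**Figure D4:**
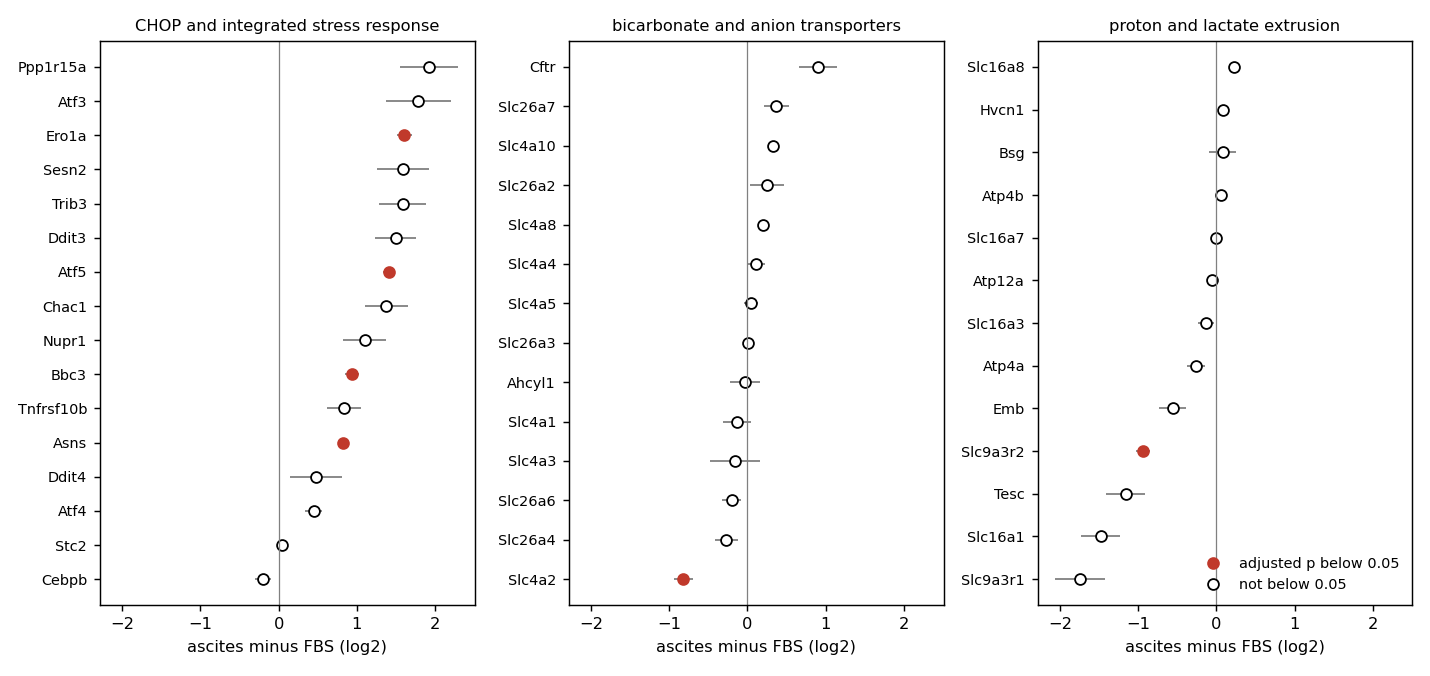
Difference between ascites and FBS (log2, horizontal axis) with SE bars for measured members of the CHOP and integrated stress response list (left), the bicarbonate and anion transporters (middle) and the proton and lactate extrusion list (right). Filled red points passed limma's adjusted threshold of 0.05: 4 stress genes lie to the right of 0, and Slc4a2 and Slc9a3r2 to the left.

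IP3 receptor and calcium release genes, to which Car8 is linked, gave 0 calls among 7 measured, where 5.28% of all genes passed, and 1 had an unadjusted p below 0.05, where 24.2% of all genes did. That gene was Ahcyl2, at -0.37 (SE 0.09, limma adjusted p = 0.0934). Itpr1, an IP3 receptor gene of the list, was not measured, so the list does not cover all IP3 receptors. Genes of lipid anchor synthesis, which Car4 needs to stay at the surface, gave 0 calls among 14, with 2 at an unadjusted p below 0.05, beside the same shares of all genes. Pigs had the smallest p there (-0.24, SE 0.06, limma adjusted p = 0.0891), and without FBS replicate 3 this list had 1 member up and 2 down, where 20.1% of all genes passed.

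Markers of other cell types, some of them rich in carbonic anhydrases, were read beside the 5.28% of all genes that passed and the 24.2% with an unadjusted p below 0.05. None of 9 erythroid, 14 leukocyte, 6 adipocyte, 10 skeletal muscle or 7 endothelial markers passed, with 0, 0, 0, 1 and 1 at an unadjusted p below 0.05. The summed linear signal of the erythroid list, which holds Car1, was 366 to 367 in ascites and 357 to 387 in FBS. That of the leukocyte list was 789 to 890 in ascites and 753 to 838 in FBS, and Ptprc, which defines leukocytes, read 3.43 and 3.37 in ascites, against 3.51, 3.34 and 3.43 in FBS. For adipocytes the sum was 805 to 827 in ascites and 838 to 864 in FBS. Most of it was Pnpla2 alone, which read 9.42 and 9.38 in ascites, against 9.49, 9.51 and 9.44 in FBS. For muscle, the other tissue rich in Car3, the sum was 545 to 581 in ascites and 606 to 615 in FBS. Mylpf read 6.69 and 6.39 in ascites, against 7.27, 7.11 and 7.23 in FBS, and the groups overlapped for every other muscle marker. Of 8 salivary and exocrine gland markers, chosen because saliva is the known source of Car6, 1 passed: Aqp5, a water channel gene that also read 11.11 to 11.87 in FBS-grown ID8 cells, at -3.90 (SE 0.27, limma adjusted p = 0.0168). The saliva genes Amy1, Prol1, Smr3a and Lpo read below 5 on all arrays and did not pass. No fibroblast marker of 9 passed, with 2 at an unadjusted p below 0.05, and 4 fell without FBS replicate 3 (Col1a1, Col3a1, Dcn and Pdgfra), where 10.9% of all genes fell. The others, Thy1, Fap, Pdgfrb, Lum and Col1a2, differed by -0.06 to 0.04, and their groups overlapped. All of these read within the range of the Y-linked probe sets. The summed signal of the fibroblast list was 6580 to 9033 in ascites and 7566 to 21040 in FBS. Most of that sum was Dcn alone, which read 13.09 and 12.62 in ascites, against 14.32, 14.30 and 12.81 in FBS. The groups overlapped for Dcn, and the sum says little of the other fibroblast markers. Whether fibroblasts had a part in the Car12 difference was not tested.

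Of 10 epithelial and mesothelial markers of ID8 cells 2 fell, Krt18 (-1.43, limma adjusted p = 0.0361) and Krt19 (-0.88, limma adjusted p = 0.0428), where 2.59% of all genes fell. The list's median difference was -1.19, and 8 of the 10 were lower in ascites. The larger differences of Bnc1 (-3.19, limma adjusted p = 0.0605), Upk3b (-2.30, limma adjusted p = 0.16) and Krt7 (-2.0, limma adjusted p = 0.26) did not pass. Without FBS replicate 3 the list had 6 fallen members, where 10.9% of all genes fell. It had 0 calls without any one of the other arrays. Krt8, Wt1, Upk3b and the mesothelin gene Msln read above 10 on every array, while Epcam and Cdh1, which encode epithelial adhesion proteins, read 5.61 to 6.05. Whether the change in these markers had a part in the Car6 and Car12 differences was not tested.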

How the data were processed

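Total RNA of ID8 cells was measured on an Affymetrix mouse array (2 ascites and 3 FBS arrays). Per the labels' protocols, a spin-column kit gave the RNA and biotin the label. Affymetrix Expression Console was used, per the submitters' processing notes, with no version or algorithm given in the sources used here. The authors' deposited values run from 2.63 to 15.38, a log2 scale, with array medians of 7.40 to 7.47, and were used unchanged.

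Of 22690 probe sets, 64 were controls, 20380 had 1 gene in the platform annotation, 691 had several and 1555 were unnamed. RefSeq (GRCm38.p6) held the Entrez identifiers of 20351, and 0 symbols changed. Each of 12393 genes was represented by the probe set with the highest mean, with no filter on dim genes. The test was limma 3.58.1 under R 4.3.3 (two-sided lmFit and eBayes, 3 residual and 1.33 prior degrees of freedom), adjusted by Benjamini-Hochberg over all genes at 0.05. SEs and intervals of carbonic anhydrase probe sets come from the same model over all 20380 probe sets. The small number of arrays limits precision.

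Members and gene lists were chosen with earlier results of these data known. Named are all member probe sets, the list genes past the threshold or with the smallest p, and the 5 genes closest to Car6 and to Car12. Other list genes and the Y-linked genes were chosen after their values were seen. In simulated data of the comparison of ascites and FBS (12393 genes), the model recovered 73% of 100 genes changed by 1 and 89% of 100 changed by 2 on the log2 scale, with 13 unchanged genes called. The simulated noise was independent between genes and arrays. It held no shift of FBS replicate 3 shared by many genes, so these shares may not hold for the real arrays.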

Additional observations from a re-analysis of the deposited data

How the results depend on the processing

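The groups did not overlap for Car6 or Car12. Leaving out 1 array or averaging FBS replicates 1 and 2 therefore could not reverse these differences, and only their size is given. With FBS replicates 1 and 2 averaged, with quantile normalization and with arrays centred on their median, Car6 differed by 4.3, 4.39 and 4.39. Car12 differed by -1.56, -1.68 and -1.68 in these settings. The other alternatives below were run only for counts of calls. Leaving out 1 array at a time gave 3.61 to 5.16 for Car6 and -1.95 to -1.52 for Car12. Counts of calls were unstable. Leaving out 1 array at a time gave 0 to 2494 genes over all, 0 to 9 stress response genes, 0 to 7 hypoxia-inducible genes, 0 to 4 estrogen-list genes, 0 to 4 proton and lactate genes, 0 to 1 bicarbonate transporters, 0 to 3 lipid anchor genes, and 0 to 0 for the IP3 receptor list and the other carbonic anhydrases. With FBS replicates 1 and 2 averaged as 1 sample, 0 genes passed over all and in each list (2128 at an unadjusted p below 0.05), which leaves fewer samples.

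The replicate block, with FBS and ascites arrays of the same number in 1 block, also gave 0 genes over all and in each list (1891 at an unadjusted p below 0.05). The labels do not say that the numbers pair the arrays, and the deviations of same-numbered arrays correlated at 0.04 over genes. Array weights gave 2612 genes over all, with 13 in the stress list (12 up, 1 down), 6 hypoxia, 4 estrogen, 4 proton and lactate, 3 bicarbonate and 2 lipid anchor genes. Of the IP3 receptor and calcium release list 1 gene passed with array weights, Ahcyl2. The stress list had 7 with quantile normalization, 9 with arrays centred on their median and 7 without the lowest 25% of genes, and the proton and lactate list had 3, 4 and 3. The same settings called 886, 916 and 884 genes over all (the last of 9291 genes), against 654 of 12393 in the main fit. Averaging all probe sets of a gene gave 2 proton and lactate genes, with 703 genes over all. Fitting probe sets in place of genes gave 1 gene of the IP3 receptor and calcium release list, with 952 of 20380 probe sets passing over all. The cause of these shifts was not tested.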

Other observations

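The Car13 probe set 1421307_at repeated the FBS values in the ascites arrays of the same replicate number (6.80 for both replicates 2 and 6.27 for both replicates 3). Over all 20380 probe sets with 1 gene, 12 showed this pattern, with both same-numbered pairs equal and the numbers differing, which is 0.0589%. The crossed pattern, with FBS replicate 2 equal to ascites replicate 3 and FBS replicate 3 equal to ascites replicate 2, occurred in 18 probe sets (0.0883%). All 5 arrays had the same value for 195 probe sets, 1448949_at of Car4 among them. Car13 was singled out after its values were seen.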
